A study of Homo sapiens with 79 samples.

Results

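The RNA recovered with CHD4 from K562 cells was compared with input RNA from the lysate of such cells. The members are 6 of the 79 libraries of the series, namely 3 CHD4 fRIP libraries and the 3 libraries of input set 1, where set 1 is the set nearest to the authors' input value for CHD4, and they were taken by their column names in the deposited gene and isoform tables. fRIP, formaldehyde RNA immunoprecipitation, recovers the RNA that is bound directly or indirectly by a cross-linked protein, and the series applied it to 24 proteins with 3 sets of 3 input libraries. K562 is an established human erythroleukemia line. All groups used here came from K562 cells cross-linked with 0.1% formaldehyde for 10 min and lysed by sonication in RIPA buffer. The CHD4 libraries carried RNA recovered with the Abcam antibody ab70469 on Protein G beads, and the input libraries carried RNA from the lysate, taken before pre-clearing and before any antibody. Ribosomal RNA was depleted with Ribo-Zero in both groups and no poly(A) selection is described. The study describes its triplicates as different dates and lysates, 1 cell line and 1 antibody were used, and no CHD4 depletion or IgG library was analysed here, so that RNA held by beads or antibody alone cannot be told apart from RNA held by CHD4.

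CHD4, also called Mi-2β, is the main ATP-driven nucleosome remodeler of the NuRD complex, which also holds the histone deacetylases HDAC1 and HDAC2, MTA, MBD and GATAD2 subunits and the histone chaperones RBBP4 and RBBP7. NuRD slides nucleosomes and removes acetyl groups from histones at promoters and enhancers. In erythroid cells it is known for its part in silencing the fetal globin genes.

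The deposited unit is FPKM, fragments per kilobase of transcript scaled to the mapped fragments of the library, which the authors estimated with Cuffdiff, so each value is a share of its library and not an amount of RNA per cell. A pseudocount of 1 FPKM was added, and log2 fold changes of CHD4 fRIP over input set 1 came from limma over all 79 libraries. A gene or isoform is called here when its Benjamini-Hochberg adjusted p is under 0.05 and its change exceeds 2-fold, that is a log2 fold change beyond 1 in size. On the log2(FPKM + 1) scale the fold change of a gene near or under 1 FPKM is understated. Input set 1 was used because the authors' own input value for CHD4 lay nearest to it, with a median absolute log2 difference of 0.083 over 25174 genes against 0.262 for set 2 and 0.268 for set 3.

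The libraries were deep and alike within each group. The steps of low FPKM values put them at about 19.4 to 24.9 M fragments for CHD4 and 19.8 to 22.4 M for input set 1. Pearson correlations of log2(FPKM + 1) across genes were 0.975 to 0.988 within CHD4, 0.973 to 0.983 within input set 1 and 0.905 to 0.926 between them. From 13931 to 14648 genes reached 1 FPKM in the CHD4 libraries and from 17358 to 17695 in those of input set 1. The K562 markers HBG2, HBE1, GATA1, TAL1 and TFRC were present in each of the 6 libraries, at 32.6 FPKM or more. Among markers of other cells, the liver gene ALB was at 0.535 FPKM or less, the T cell gene CD3E at 0.469 FPKM or less and the islet gene INS was listed at 0, while the epithelial gene EPCAM stood at 26.6 to 52.3 FPKM. Globin levels were uneven within both groups, as described further on, and CHD4 replicate 2 and input replicate 1 were the low libraries.

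CHD4 fRIP held a narrower set of RNAs than input. Of the 25442 genes tested, 1313 (5.16%) were higher in CHD4 fRIP and 3701 (14.5%) were lower. Genes called higher were abundant, with a median of 35.9 FPKM over the 6 libraries, while genes called lower had a median of 2.25 FPKM. Among the 1313, the 3 CHD4 libraries lay above all 9 input libraries of the series for 975, and among the 3701 they lay below all 9 for 2992. Against all 9 inputs, 651 of the 1313 and 2420 of the 3701 were also called. The balance of directions rested on the scale, because the genes as a whole had a median log2 fold change of -0.17 as deposited and 0.42 when each library was centred on its own median. Centring gave 4853 higher and 1491 lower genes, so that higher genes made up 76.5% of the calls in place of 26.2%, while centring on genes at 10 FPKM or more gave 898 higher and 4485 lower genes (16.7%). All 1313 genes called higher were also called higher after centring on the median, and 1491 of the 3701 lower genes were also called lower.

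By class of gene, 1030 of 13618 mRNA genes were higher and 1043 were lower, with a median of -0.02. The noncoding classes were called lower more often than higher, with 167 higher and 1090 lower of 5245 lncRNA genes (median -0.33), 79 higher and 1288 lower of 5247 pseudogenes (median -0.37) and 2 higher and 49 lower of 169 other RNA genes (median -0.58). After centring, the medians became 0.58 for mRNAs, 0.26 for lncRNAs, 0.23 for pseudogenes and 0.01 for other RNA, so the sign turned in all 4 classes. The calls became 3755 higher and 253 lower mRNAs, 531 higher and 458 lower lncRNAs, 441 higher and 653 lower pseudogenes and 9 higher and 26 lower other RNA genes, with more lower than higher calls still in the last 2 classes. Among the 10619 genes with a mean of 5 FPKM or more, 1181 were higher and 1043 lower. There 974 mRNAs were higher and 700 lower (median 0.14), 122 lncRNAs were higher and 136 lower of 749 (median 0.07) and 60 pseudogenes were higher and 125 lower of 503, with a median of 0.19 that lay above that of the mRNAs.

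The mRNA of CHD4 itself did not pass the test. The CHD4 gene (ENSG00000111642.10, hg19 chromosome 12, 6679248 to 6723690, minus strand) stood at 95.2, 159 and 258 FPKM in CHD4 replicates 1, 2 and 3 and at 268, 325 and 181 FPKM in input replicates 1, 2 and 3. The groups overlapped, and the difference of -0.67 ± 0.41 (SE, log2) had an adjusted p of 0.20 (limma). The isoform with the widest spread was ENST00000536301, which has no match in the reference annotation, estimated at 0, 47.6 and 112 FPKM in CHD4 fRIP and 56.9, 130 and 0 FPKM in input. The coding isoform ENST00000357008 was steadier, at 26.0, 26.7 and 41.4 FPKM against 45.9, 47.6 and 48.4 FPKM (log2 fold change -0.61, not called).

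Of the 15 NuRD subunit genes tested, 1 was higher and 1 lower (6.67% each), near the 7.56% and 7.66% of all mRNAs. Their median was 0.13, and it was -0.00 with centring on genes at 10 FPKM or more and 0.72 with centring on the median, where 4 were higher and none lower. With centring on the median, 27.6% of all mRNAs were higher and 1.86% lower, and their median was 0.58. RBBP7 (chromosome X, 16857406 to 16888485, minus strand), the histone chaperone that NuRD shares with PRC2, stood at 192, 189 and 252 FPKM in CHD4 fRIP and 75.7, 86.6 and 84.9 FPKM in input set 1. All 3 CHD4 values lay above all 9 inputs, whose highest was 128 FPKM, and the gene rose by 1.34 ± 0.16 (SE, log2; adjusted p = 4.05e-10, limma). GATAD2B, a scaffold subunit, was lower, at 5.26, 4.89 and 4.72 FPKM against 11.9, 10.2 and 10.9 FPKM. Its log2 fold change of -1.01 sat at the edge of the call, which was lost without CHD4 replicate 2 (-0.999), without CHD4 replicate 3 (-0.98) and without input replicate 1 (-0.95), and also against all 9 inputs (-0.80) and after centring (-0.41). HDAC1 lay between, with 140, 197 and 167 FPKM against 115, 101 and 101 FPKM and a log2 fold change of 0.65. The others ranged from -0.72 for CHD3 to 0.95 for CDK2AP1 and none of them was called.

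Genes of the CHD remodeler family, to which CHD4 belongs, had a lower median than all genes. Of 10 tested, 2 were lower and none higher, against 7.66% lower of all mRNAs, with a median of -0.69. Their median coding length, 5784 bases, was the longest of the mRNA lists. In the longest class of coding length, described further on, 17.1% of mRNAs were lower, with a median of -0.46. After centring none of the CHD genes was lower, 1 was higher and their median was -0.10, against 27.6% higher of all mRNAs (median 0.58). CHD6, a paralog of CHD4, fell by 1.27 on the log2 scale, from 32.0, 28.1 and 28.5 FPKM in input to 9.36, 15.9 and 10.6 FPKM. CHD1L, a shorter member of the family, stood at 79.1, 72.9 and 76.6 FPKM against 44.03, 44.9 and 44.9 FPKM, with no overlap and a log2 fold change of 0.76, under the size needed for a call.

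**Figure D1:**
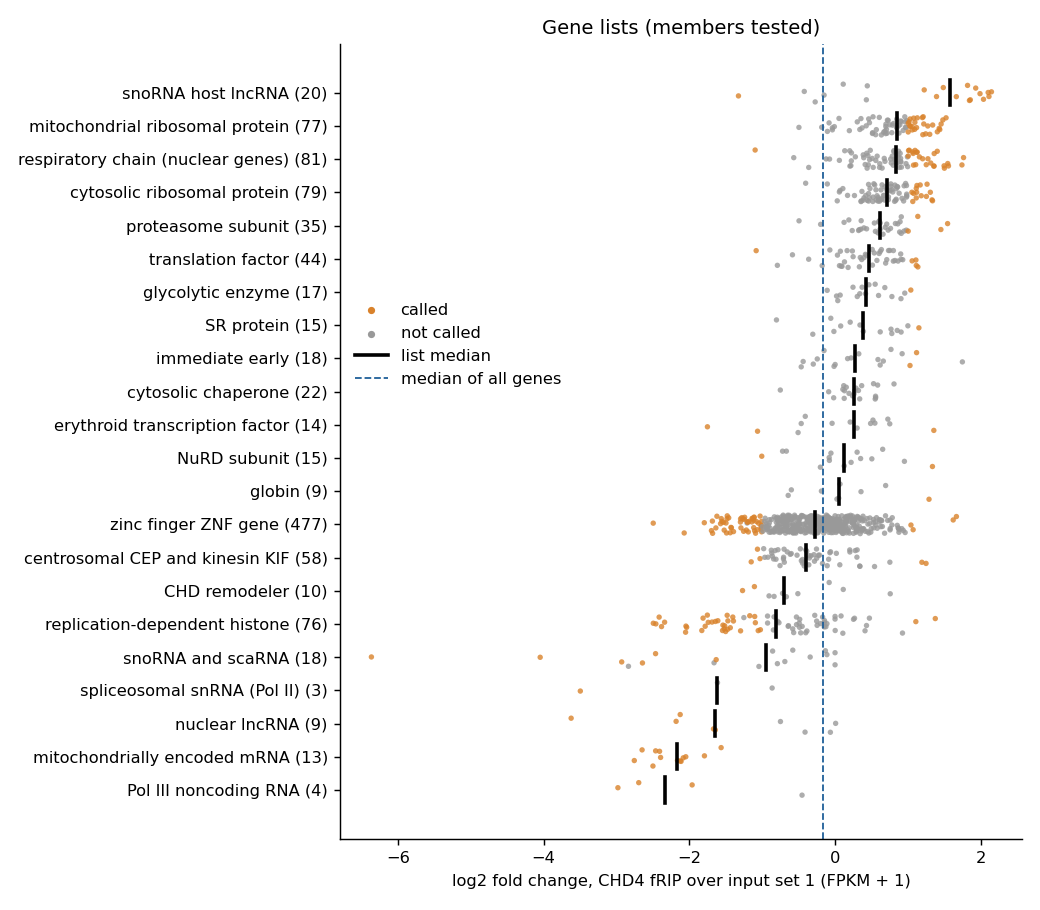
Log2 fold change of CHD4 fRIP over input set 1 on the scale log2(FPKM + 1) (x axis) for the members of 22 gene lists (y axis, members tested in brackets). Points are genes, orange where called and grey where not, black bars are list medians and the dashed line is the median of all genes (-0.17). snoRNA host lncRNAs lie highest (median 1.58) and Pol III noncoding RNAs lowest (-2.33), and the medians of zinc finger and of CEP and KIF genes turn positive when libraries are centred, as does that of all genes (0.42).

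Against input set 1, the highest medians among mRNA lists belonged to mRNAs for ribosomes and mitochondria. Their coding sequences are short, with medians of 453 bases for cytosolic ribosomal proteins, 564 for mitochondrial ribosomal proteins and 387 for the respiratory chain, against 1176 for all mRNAs. Of 79 cytosolic ribosomal protein mRNAs, 14 were higher (17.7%, against 7.56% of all mRNAs) and none lower, with a median of 0.71. Among mRNAs with a coding length of 3 to 555 bases, 20.7% were higher and the median was 0.32. After centring 66 of the 79 were higher, against 27.6% of all mRNAs. Of 77 mRNAs for mitochondrial ribosomal proteins, 27 were higher (35.1%) and none lower (median 0.85), and of 81 nuclear genes of the respiratory chain 25 were higher (30.9%) and 1 lower (median 0.84). Of 35 proteasome subunit mRNAs, 4 were higher (11.4%, median 0.62). Of 44 translation factor mRNAs 4 were higher (9.09%) and 1 lower (0.47), and of 17 glycolytic enzyme mRNAs 1 was higher (5.88%; 0.42), close to the 7.56% of all mRNAs that were higher. None of 22 chaperone mRNAs was called (0.27). Against all 9 inputs the counts of higher genes were 6 for cytosolic and 1 for mitochondrial ribosomal proteins and 6 for the respiratory chain, with medians of 0.47, 0.46 and 0.35. In that comparison 505 of 13618 mRNAs were higher (3.71%), so the mitochondrial ribosomal list lay under the share of all mRNAs. The median of the SR protein genes there, 0.40, lay above that of the respiratory chain. CHD4 replicate 2 gave the lowest median of the 3 libraries for each of these 3 lists.

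RPS18, a protein of the small ribosomal subunit, stood at 4020, 2569 and 3468 FPKM in CHD4 fRIP against 1265, 1346 and 1320 FPKM in input set 1, a rise of 1.33 ± 0.18 (SE, log2). All 3 CHD4 values exceeded the highest of the 9 inputs, 1859 FPKM, and the lowest was replicate 2. RPS7, another small subunit protein, had the largest change of the list, 1.34, with 797, 675 and 718 FPKM against 278, 286 and 299 FPKM. UQCRH, the hinge protein of respiratory complex III, stood at 1166, 714 and 1220 FPKM against 418, 457 and 476 FPKM (log2 fold change 1.16). Replicate 2 was again the lowest and fell within the range of the 6 other inputs, 621 to 717 FPKM. MRPS6 of the mitochondrial ribosome had 78.6, 51.8 and 88.3 FPKM against 21.2, 25.3 and 26.1 FPKM (1.52), above all 9 inputs. Ribosomal protein genes have many processed pseudogenes, and 31-base reads that match several copies can be shared between them by the estimate, which makes the values of these genes uncertain.

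Among mRNAs at 10 FPKM or more that overlap none of the 9 inputs, the largest rise was that of RAB13, a small GTPase of membrane trafficking (ENSG00000143545.4, chromosome 1, 153954093 to 153958834, minus strand). Its level was 87.1, 96.4 and 92.8 FPKM in CHD4 fRIP and 15.6, 15.3 and 15.9 FPKM in input set 1, a rise of 2.49 ± 0.13 (SE, log2; adjusted p = 8.63e-22, limma). The 3 CHD4 libraries lay far above the 9 inputs, which reached 20.8 FPKM. The full-length coding isoform ENST00000368575 carried the change, with 82.7, 89.1 and 87.5 FPKM against 14.5, 14.4 and 14.6 FPKM. Next in size came TSR2, a ribosome assembly chaperone (59.4, 55.2 and 62.1 FPKM against 10.3, 14.1 and 14.4 FPKM, 2.12), FAM24B (2.11) and PDRG1 (68.2, 61.5 and 62.2 FPKM against 11.7, 15.5 and 15.6 FPKM, 2.10). SMIM11 (2.07), ACYP1 (2.07), the dynein light chain gene DYNLT1 (2.06), the secreted factor gene EGFL7 (2.05), COMMD3-BMI1 (2.02) and the keratin gene KRT10 (1.99) completed the 10 with the largest rise among genes at 10 FPKM or more. For each of these 10 mRNAs all CHD4 libraries lay above all 9 inputs, which the rule for naming them required, and each kept its call without any 1 of the 6 libraries.

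**Figure D2:**
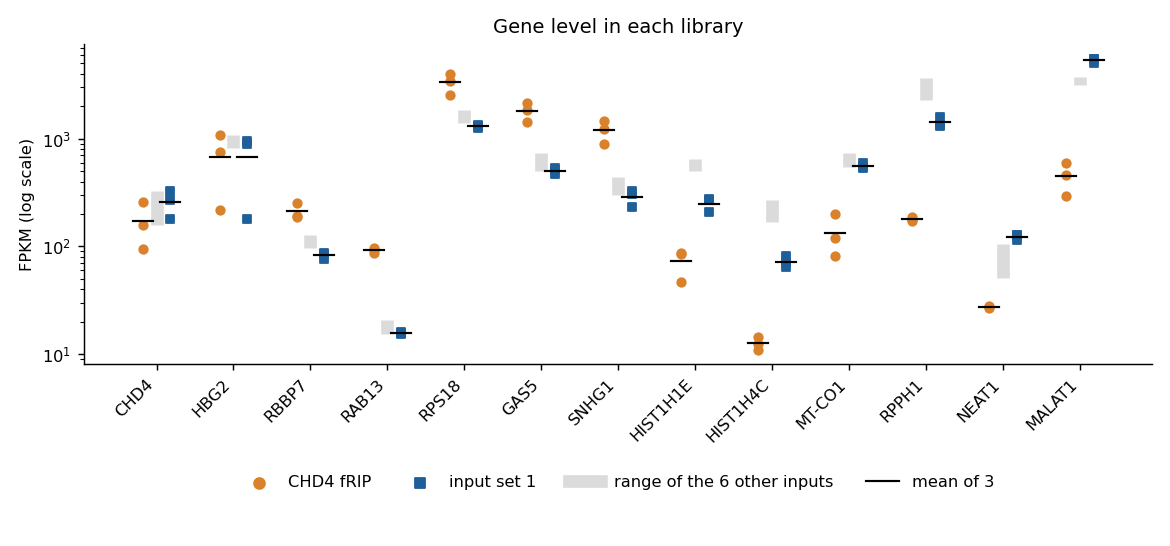
FPKM in each library on a log axis for 13 genes, with CHD4 fRIP as orange circles, input set 1 as blue squares, the mean of 3 as a bar and the range of the 6 other inputs in grey. RAB13, RPS18, GAS5 and SNHG1 lie higher in all 3 CHD4 libraries, HIST1H4C, RPPH1, NEAT1 and MALAT1 lie lower, and CHD4 and HBG2 overlap.

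The host genes of small nucleolar RNAs, whose introns hold the snoRNAs and whose spliced exons remain as short lncRNAs, had the highest list median. Of 20 tested, 13 were higher (65.0%, against 3.18% of all lncRNAs) and 1 lower, with a median of 1.58, and the same counts held against all 9 inputs (median 1.35). GAS5 (chromosome 1, 173827697 to 173838020, minus strand) stood at 2132, 1437 and 1843 FPKM against 471, 513 and 530 FPKM, a rise of 1.82 ± 0.20 (SE, log2). ZFAS1 had the largest change, 2.15, with 946, 518 and 836 FPKM against 154, 173 and 175 FPKM. SNHG1 stood at 1242, 894 and 1465 FPKM against 233, 309 and 324 FPKM (2.04), C6orf48, also SNHG32, at 1424, 1381 and 1216 FPKM against 324, 346 and 338 FPKM (1.99), and SNHG5 at 2329, 939 and 2048 FPKM against 475, 546 and 540 FPKM (1.67). For all 5 the CHD4 libraries lay above the 9 inputs, with replicate 2 the lowest for 4 of them.

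In SNHG3, the member that fell, the isoforms that retain introns were lower and the spliced one was not called. Its gene value was 126, 119 and 143 FPKM against 287, 341 and 349 FPKM (log2 fold change -1.33). The retained intron isoforms ENST00000447507 and ENST00000437681 fell by 2.27 and by 1.84 on the log2 scale, while the spliced lncRNA isoform ENST00000413987 stood at 63.1, 39.0 and 89.9 FPKM against 55.8, 51.0 and 48.1 FPKM and was not called. The gene lies inside RCC1 on the same strand, which shares reads with it where exons overlap.

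The 3′ ends of 4 transcripts that rose, those of the lncRNAs SNHG1 and ZFAS1 and the mRNAs RPS18 and UQCRH, are printed below. The reason is that the change of short mRNAs differed with the presence of a poly(A) signal, as described further on. They are the last 30 bases of the annotated transcript with the highest FPKM in input set 1, 5′ to 3′ on the transcript's strand, from GENCODE sequences on hg19, with the poly(A) signal AATAAA in capitals.
SNHG1 (chr11:62619460-62623358, minus): gatgaaaatAATAAAatgattgattacata
ZFAS1 (chr20:47895179-47905797, plus): ataaagaaAATAAAatcttttaaatcaaaa
RPS18 (chr6:33239852-33244288, plus): ctgttAATAAAtagtttatatacctatggc
UQCRH (chr1:46769370-46782448, plus): catctaAATAAAagttctatgatctgcaaa
All 4 rose, and their spliced transcripts are short, with 1108, 504, 549 and 537 bases. Not all short mRNAs that rose carried the hexamer, as ATP5J2 (1.36, 305 bases), which lies within ATP5J2-PTCD1 on the same strand, and ATP5G3 (1.005, 795 bases) had no AATAAA in the last 30 bases of the annotated transcript. The call of ATP5G3 was lost without CHD4 replicate 1 (0.94), CHD4 replicate 3 (0.76) or input replicate 1 (0.95). The hexamer was not confined to transcripts that rose. MALAT1, a lncRNA that fell (-3.62), has AATAAA in the last 30 bases of its annotated transcript ENST00000508832.

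Across mRNAs, the change followed the length of the coding sequence. Spearman correlations of the log2 fold change with coding length, over 13320 mRNAs matched to an annotated transcript, were -0.416, -0.379 and -0.404 in the 3 CHD4 libraries (mean -0.399 ± 0.019, SD). With transcript length the mean was -0.363 ± 0.011 and with exon number -0.240. The 3′ UTR length was more weakly related, at -0.146, and given coding length it fell to -0.061, while coding length given 3′ UTR length kept -0.367. GC content gave 0.065 ± 0.080, with -0.011, 0.149 and 0.056 in the 3 libraries. A pyrimidine run at the annotated start, the mark of terminal oligopyrimidine mRNAs, gave 0.012. These correlations are across genes, which share the libraries and are not independent, and FPKM itself divides by length.

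The mRNAs were put in 5 classes of equal size by coding length. In the shortest class, 3 to 555 bases, 551 of 2664 mRNAs were higher (20.7%) and 141 were lower. In the longest class, 2199 to 80778 bases, 5 of 2662 were higher (0.188%) and 455 were lower (17.1%). The medians went from 0.32 in the shortest class to -0.46 in the longest, and each CHD4 library showed the same order from the second class of length on. At 7364 mRNAs with 10 FPKM or more in input set 1, the correlation with coding length was stronger, -0.561.

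**Figure D3:**
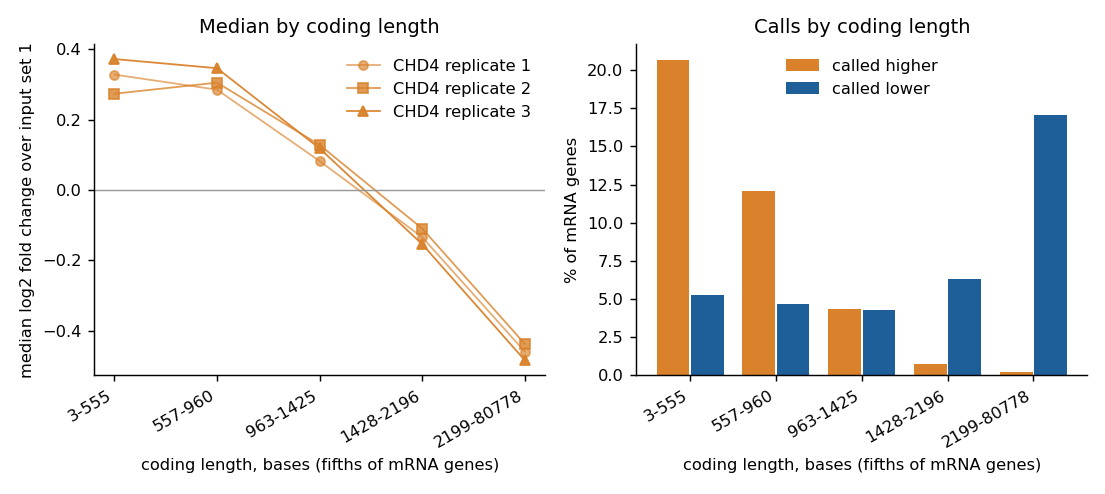
Left, median log2 fold change over input set 1 of mRNAs in 5 classes of coding length (x axis, bases), with 1 line for each CHD4 library. Right, percent of mRNAs called higher (orange) and lower (blue) in each class. The medians decline from the second class on in all 3 libraries, and the share called higher goes from 20.7% to 0.188%.

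The poly(A) signal at the transcript end was related to the change within short mRNAs. The split by hexamer was chosen after the result of a search over all 6-base words was seen. Both used the same mRNAs and fold changes, so the split is not independent of that search. AATAAA in the last 40 bases was found in 7474 of 13320 mRNAs, ATTAAA without it in 1755 and neither in 4091, with medians of 0.02, -0.01 and -0.10. In the shortest of 5 classes by transcript length, the 991 mRNAs with AATAAA had a median of 0.66 and 29.7% were higher, while the 1431 with neither hexamer had a median of -0.04 and 9.85% were higher. In the longest class the medians were -0.43 and -0.51. Among single-exon mRNAs, 157 with AATAAA had a median of 0.11 and 6.37% were lower, and 169 with neither had a median of -0.51 and 33.1% were lower. Searched over the whole transcript, AAUAAA had the most positive mean Spearman correlation with the change of all 6-base words, 0.140 ± 0.052 (SD of 3 libraries) and 0.149 ± 0.018 given length and GC content, and it occurs in 77.7% of mRNAs. Some words had negative correlations larger in size, down to -0.155 ± 0.022 for UCAUAC, which became -0.055 given length and GC content. An annotation that stops short of the true end would also lack the signal, and this could not be told apart from its absence.

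Replication-dependent histone mRNAs, which end in a stem-loop in place of a poly(A) tail, were among the lower mRNAs. Of 34 histone genes that the reference classes as mRNA genes, 2 were higher and 17 lower, against 7.56% higher and 7.66% lower of all mRNAs, with a median of -0.98. After centring 6 were higher and 6 lower (median -0.38), against 27.6% higher and 1.86% lower of all mRNAs (median 0.58). Against all 9 inputs none of the 34 was higher and 21 were lower, with a median of -1.77, against 3.71% higher and 4.75% lower of all mRNAs. The full list of 76 genes also holds 12 pseudogenes and 30 genes with no match in the reference, and had 2 higher and 33 lower genes and a median of -0.81 (6 higher and 15 lower after centring). HIST1H1E, a linker histone, stood at 84.3, 46.2 and 87.4 FPKM in CHD4 fRIP against 208, 273 and 268 FPKM, a log2 fold change of -1.81. HIST1H4C, a histone H4 gene, had 14.4, 12.5 and 10.97 FPKM against 81.2, 69.5 and 64.4 FPKM (-2.42). HIST1H1B (-1.40), HIST1H1D (-1.48) and HIST2H2AC (-1.69) fell as well. HIST1H4C lies within the HIST1H2BC gene model on the other strand. These 5 histone genes were chosen after their values were seen, and in each the CHD4 libraries lay below all 9 inputs. Among histone mRNAs with a matched transcript, those more abundant than HIST1H1E were not called lower. HIST1H1C, at a mean of 914 FPKM over the 6 libraries, had a log2 fold change of -0.39. HIST1H2BK, at 263 FPKM, had 0.43 and HIST1H2BJ, at 166 FPKM, had 0.93, and none of these was called. HIST1H2AC, at 243 FPKM, was called higher. The stem-loop core was present in HIST1H1C, HIST1H2BK and HIST1H2AC and absent from HIST1H2BJ. HIST1H2AD had the largest fall of the list, -2.50, from 26.0, 26.2 and 25.3 FPKM to 8.49, 1.18 and 4.19 FPKM.

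The ends below are shown because they carry the stem-loop, which is in capitals, and no AATAAA. They are stretches of the annotated transcripts on hg19, 5′ to 3′.
HIST1H1E (chr6:26156557-26157343, plus): acccaaaGGCTCTTTTCAGAGCCaccca
HIST1H1B (chr6:27834570-27835366, minus): ccccaaaGGCTCTTTTCAGAGCCaccca
HIST2H2AC (chr1:149858468-149858961, plus): gaccaaaGGCTCTTTTTAGAGCCaccca
HIST1H2AC (chr6:26124400-26124918, plus): acccaaaGGCTCTTTTCAGAGCCccccta
HIST1H2AC carries the same loop and rose against input set 1, with 298, 315 and 387 FPKM against 139, 159 and 162 FPKM (log2 fold change 1.11). Its level in the other input sets was 291 to 542 FPKM, so the difference turned to -0.02 against set 2 and -0.64 against set 3, and the call was lost without CHD4 replicate 3 (1.00). The other member called higher, HIST3H2A, lacks the stem-loop core in its annotated transcript and had 101, 137 and 129 FPKM against 50.3, 41.0 and 47.6 FPKM (1.38), but -0.17 against set 3.

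Of 32 histone genes with a matched transcript, 27 held the stem-loop core CTTTTNAG in the last 80 bases of the transcript's own strand. In these the median was -1.30, with 1 higher and 15 lower. In the 5 without it the median was 0.47, with 1 higher and 1 lower. The core occurs in the same window of 1.16% of all 13320 mRNAs. Near-identical histone genes share reads, so single members are uncertain.

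Of 9 nuclear lncRNAs tested from the list, which does not hold every nuclear lncRNA that was measured, 5 were lower (55.6%, against 20.8% of all lncRNAs) and none higher, with a median of -1.64. MALAT1, a lncRNA of nuclear speckles (chromosome 11, 65265111 to 65275544, plus strand), stood at 465, 599 and 294 FPKM in CHD4 fRIP and 5083, 5471 and 5547 FPKM in input set 1. The groups did not overlap. The log2 fold change of -3.62 had a standard error of 1.31, estimated over all 27 groups (adjusted p = 0.021, limma), and the call was lost without CHD4 replicate 3 (-3.34). NEAT1, the scaffold of paraspeckles, stood at 27.9, 27.0 and 27.1 FPKM against 115, 127 and 127 FPKM (-2.13). The lncRNAs FTX (-2.18), KCNQ1OT1 (-1.67) and MEG3 (-1.64), named after their values were seen, fell as well, and KCNQ1OT1 lies within KCNQ1 on the other strand. TUG1 (52.6, 42.2 and 39.3 FPKM against 63.0, 56.7 and 58.6 FPKM) and OIP5-AS1 (80.2, 74.0 and 59.6 FPKM against 72.5, 75.1 and 74.4 FPKM) were not called.

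Among 4 noncoding RNAs made by RNA polymerase III, 3 were lower, against 14.5% of all genes. RPPH1, the RNA of RNase P, stood at 171, 188 and 176 FPKM against 1602, 1317 and 1347 FPKM, a log2 fold change of -2.98. RMRP, the RNA of RNase MRP, had 442, 485 and 462 FPKM against 1802, 1794 and 1823 FPKM (-1.96), and RN7SL1, the RNA of the signal recognition particle, 31.3, 20.2 and 25.6 FPKM against 203, 147 and 163 FPKM (-2.69). For all 3 the CHD4 libraries lay below the 9 inputs. VTRNA2-1 was listed at 0 in 4 of the 6 libraries.

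Of 18 small nucleolar and Cajal body RNAs tested, 6 were lower (33.3%) and none higher, with a median of -0.95, against 14.5% lower of all genes and 28.99% of the 169 other RNA genes. Of these 18 RNAs the reference classes 8 as other RNA and 6 as lncRNA and does not hold 4. SCARNA2 stood at 40.9, 43.8 and 61.4 FPKM against 319, 247 and 247 FPKM (-2.46) and SCARNA9 at 6.31, 4.22 and 6.57 FPKM against 137, 91.4 and 101 FPKM (-4.05). SCARNA9 lies within KIAA1731 on the same strand. SNORA71B was listed at 0 in all 3 CHD4 libraries and at 68.0, 102 and 77.7 FPKM in input set 1, while the other inputs ranged from 0 to 36.3 FPKM. Of 3 spliceosomal snRNAs, RNU11 of the minor spliceosome was lower, at 22.01, 8.57 and 6.87 FPKM against 111, 139 and 158 FPKM (-3.50, a call lost without CHD4 replicate 3, where it was -3.19). RNAs this short are measured poorly by libraries of fragmented RNA, and FPKM of very short genes rests on few fragment positions.

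All 13 mRNAs encoded in the mitochondrial genome were lower, against 7.66% of all mRNAs, with log2 fold changes from -2.76 to -1.56 and a median of -2.16. MT-CO3, a cytochrome c oxidase subunit, stood at 508, 338 and 184 FPKM against 1890, 1685 and 1680 FPKM (-2.46). MT-ND2, a complex I subunit, had the largest fall, -2.76, with 28.2, 17.6 and 10.4 FPKM against 128, 120 and 121 FPKM. The 3 CHD4 libraries differed among themselves in this list, with medians of -1.54, -2.40 and -2.78, and each lay below all 9 inputs for the genes named. The nuclear genes of the same respiratory chain, described above, had a median of 0.84.

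At the level of isoforms, 5266 of 104506 were higher (5.04%) and 15978 lower (15.3%), and after centring the balance turned to 15055 higher and 6911 lower. Isoforms annotated as retained introns stood apart, with 299 higher and 6721 lower of 19390 (34.7% lower, median -0.72). On the deposited scale coding isoforms were balanced, with 3143 higher and 3251 lower of 42461 (median 0.00), as were nonsense-mediated decay isoforms, with 551 higher and 525 lower of 8351 (median -0.02). Isoform values are estimates that divide 31-base reads between overlapping transcripts.

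The ratio of retained intron to coding isoforms compares values within a gene and a library, so a factor common to the library has little effect on it. Over the 5070 genes with both kinds, retained intron isoforms made up 9.18%, 9.99% and 9.56% of the summed FPKM in the CHD4 libraries and 23.4%, 21.8% and 21.7% in input set 1. The other inputs lay between, at 16.1% to 17.1% in set 2 and 15.5% to 16.0% in set 3, and the groups did not overlap. Gene by gene, the ratio was higher in CHD4 fRIP for 106 genes (2.09%) and lower for 3307 (65.2%). Among cytosolic ribosomal protein genes it was lower for 51 of 64 (median difference -2.50), among respiratory chain genes for 40 of 47 (-2.26), among mitochondrial ribosomal protein genes for 25 of 34 (-1.82) and among proteasome genes for 21 of 24 (-2.36). Zinc finger genes, with 54 lower and 1 higher of 107 (-1.04), and CHD genes, with 2 lower and 2 higher of 7 (-0.28), were shifted less. The CHD4 gene itself went the other way. Its retained intron isoforms stood at 30.5, 16.0 and 63.9 FPKM against 12.6, 9.37 and 8.31 FPKM, its coding isoforms at 55.7, 56.9 and 69.0 FPKM against 96.4, 86.0 and 87.1 FPKM, and the ratio rose by 2.14 on the log2 scale (standard error 0.48).

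**Figure D4:**
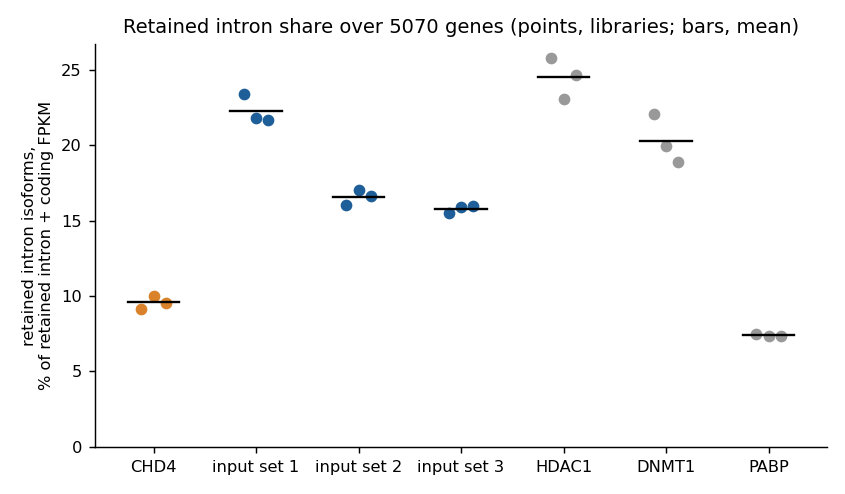
Percent of the summed retained intron and coding isoform FPKM that belongs to retained intron isoforms, over 5070 genes (y axis), for the libraries of 7 groups (x axis); points are libraries and bars are means of 3. The CHD4 libraries lie at 9.18% to 9.99%, below all 9 inputs and near PABP (7.33% to 7.47%).

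Genes for SR proteins, which bind exonic enhancers and regulate their own transcripts through introns and poison exons, showed the ratio at its most extreme. Of 11 SR genes, 9 were lower and 1 higher, with a median difference of -3.20. TRA2B, an SR-like splicing activator, had the largest shift among named genes, -6.41 (standard error 0.44). This size rests on the isoform estimates of input set 1. There another TRA2B isoform, given below, was listed at about 0, against 15.3 to 30.0 FPKM in the other 6 inputs. Its retained intron isoforms fell from 99.1, 121.5 and 119 FPKM to 10.9, 10.5 and 5.65 FPKM, and its coding isoforms rose from 20.6, 25.7 and 23.5 FPKM to 188, 141 and 200 FPKM. At the gene level TRA2B went from 122, 149 and 146 FPKM to 277, 258 and 299 FPKM, a log2 fold change of 1.00 that did not pass the size threshold. Of the 15 SR genes, only SRSF5 was called at the gene level, with 184, 333 and 183 FPKM against 112, 96.6 and 92.9 FPKM (1.15), and its call was lost without CHD4 replicate 2 (0.87).

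Isoforms of SR genes that are marked for nonsense-mediated decay, looked up after the isoform results were seen, did not move in 1 direction. Of 21 tested, 4 were higher and 2 lower. SRSF3 ENST00000477442 stood at 38.5, 47.7 and 48.6 FPKM against 13.1, 11.4 and 14.5 FPKM (log2 fold change 1.72), above the 18.1 to 28.6 FPKM of the other inputs. SRSF7 ENST00000443213 went down, with 1.75, 4.85 and 2.22 FPKM against 15.6, 13.7 and 12.96 FPKM (-2.01). TRA2B ENST00000456380 stood at 76.6, 100 and 82.8 FPKM in CHD4 fRIP, was listed at about 0 in input set 1 and had 15.3 to 30.0 FPKM in the other 6 inputs, so no fold over set 1 is given.

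The zinc finger and the CEP and KIF mRNAs, with median coding lengths of 1608 and 2592 bases, had medians below that of all mRNAs. Zinc finger ZNF genes encode many DNA-binding repressors. Of 449 with an mRNA, 4 were higher and 52 lower, with a median of -0.29. After centring the median was 0.31, with 40 higher and 7 lower. It still lay below the centred median of all mRNAs, 0.58, of which 27.6% were higher and 1.86% lower. The full list of 477 also holds 19 pseudogenes and had 4 higher and 53 lower genes. ZNF117 fell most, by 2.50 on the log2 scale, from 48.4, 41.1 and 40.1 FPKM to 6.47, 12.2 and 3.84 FPKM, and ZNF720 rose most, by 1.67, from 11.7, 9.27 and 8.06 FPKM to 28.8, 34.98 and 34.2 FPKM. Of 58 centrosomal CEP and kinesin KIF mRNAs, 2 were higher (3.45%) and 3 lower (5.17%), both under the 7.56% and 7.66% of all mRNAs, with a median of -0.39. After centring their median was 0.20, also below the 0.58 of all mRNAs. CEP19, which lies within PIGX on the other strand, rose by 1.25, and KIF20B, a mitotic kinesin, fell by 1.15.

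Of 14 erythroid and hematopoietic transcription factors, 1 was higher (7.14%) and 2 lower (14.3%), against 7.56% and 7.66% of all mRNAs (median 0.26). After centring 6 were higher and 1 lower (median 0.85), against 27.6% higher and 1.86% lower of all mRNAs (median 0.58). LMO2, a bridging factor of the GATA1 and TAL1 complex, stood at 70.7, 47.3 and 98.1 FPKM against 19.9, 28.7 and 31.9 FPKM (log2 fold change 1.36), and RUNX1, a hematopoietic regulator, at 13.6, 12.7 and 11.3 FPKM against 45.5, 42.4 and 45.5 FPKM (-1.75). GATA1 was not called, with 95.1, 87.6 and 112 FPKM against 73.3, 66.4 and 63.9 FPKM. Of 9 globin genes tested, 1 was higher (11.1%). HBG2, a fetal globin, stood at 746, 218 and 1077 FPKM in CHD4 fRIP against 178, 901 and 944 FPKM in input set 1, so that CHD4 replicate 2 and input replicate 1 were low and the groups overlapped. The globin median was 0.05, and it was -0.43 against all 9 inputs and -0.08 with centring on genes at 10 FPKM or more. HBQ1 (24.9, 29.4 and 31.5 FPKM against 8.497, 13.6 and 11.7 FPKM, 1.29) overlapped the other inputs, which reached 28.8 FPKM.

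Of 18 immediate early mRNAs, which turn over fast, 2 were higher (11.1%, against 7.56% of all mRNAs) and none lower (median 0.27). None was higher with centring on genes at 10 FPKM or more, and 8 were higher with centring on the median, where 27.6% of all mRNAs were higher. IER2 stood at 49.1, 63.9 and 55.4 FPKM against 21.9, 25.9 and 27.96 FPKM (1.12). The stress factor ATF3 had 81.4, 95.8 and 85.2 FPKM against 16.1, 32.3 and 30.9 FPKM, with no overlap and a log2 fold change of 1.75, but its standard error of 0.74 left it uncalled (adjusted p = 0.051, limma).

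Many of the mRNA genes with the largest falls lie within other genes. Among the 10 that fell most at 10 FPKM or more, 5 are olfactory receptor genes on chromosome 11, OR51I2, OR52D1, OR51M1, OR51Q1 and OR51B6, which lie within the span of the HBG2 and HBE1 gene models on the other strand. OR51I2 (5470553 to 5477748, plus strand) stood at 1.46, 0.97 and 1.39 FPKM against 22.4, 31.4 and 29.5 FPKM (log2 fold change -3.65). OMG, a myelin glycoprotein gene within NF1 on the other strand, had 0.99, 0.81 and 0.44 FPKM against 15.5, 13.7 and 15.5 FPKM (-3.20). AL590452.1 (-3.66) lies within PDE4DIP on the other strand, while KCNJ16 (-3.42), OR2B2 (-3.24) and SLC16A4 (-3.18) lie within no other mRNA gene. Of the lncRNAs with the largest falls, RP11-358B23.5 (-3.64) lies within STAT5B on the other strand and ANKRD10-IT1 (-3.54) within ANKRD10 on the same strand.

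Counted over all genes, in a description added after the data were seen, 43.96% of 555 lncRNA genes that lie wholly inside an mRNA gene on its strand were lower, 29.4% of 1671 inside one on the other strand and 11.8% of 3019 that lie inside none. For pseudogenes the shares were 35.1% of 863, 45.1% of 1454 and 11.3% of 2930, and for mRNA genes 14.9% of 228, 18.9% of 418 and 7.08% of 12959. The shares called higher, in the same order, were 10.1%, 7.42% and 7.53% for mRNA genes. They were 0.901%, 1.98% and 4.27% for lncRNA genes and 1.04%, 1.24% and 1.775% for pseudogenes. The library kit that the study's methods name, TruSeq RNA, does not mark strand, so reads of such a gene and unspliced reads of the gene around it cannot be told apart. Of the lncRNAs with the largest rises, RP11-462G2.1 was the most abundant, with 629, 556 and 487 FPKM against 81.2, 133 and 136 FPKM (2.28).

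CHD4 fRIP was then set against 3 other fRIPs. HDAC1 is a deacetylase of the NuRD complex, DNMT1 is the maintenance DNA methyltransferase and PABP binds poly(A) tails. HDAC1 and DNMT1 share input set 1 with CHD4, so the difference of the log2 fold changes is the difference between the fRIPs, and PABP was set against its own nearest input, set 3. Each had 3 libraries.

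Against HDAC1 fRIP, 2934 genes were higher in CHD4 fRIP (11.5%) and 5445 lower (21.4%), and after centring 6265 were higher and 2281 lower (73.3% of the calls higher in place of 35.02%). Of 79 cytosolic ribosomal protein mRNAs, 78 were higher, with a median of 2.29. RPS18 stood at 589, 412 and 414 FPKM in HDAC1 fRIP, below input set 1. Of 81 respiratory chain genes, 66 were higher (1.75), and of 449 zinc finger mRNAs 179 were lower and 7 higher (-0.84), which became 61 lower and 33 higher after centring (-0.15). Of 10 CHD genes, 8 were lower, and 3 after centring. MALAT1 was at 6965, 5683 and 5039 FPKM in HDAC1 fRIP. Retained intron isoforms took 23.1% to 25.8% of the summed FPKM in HDAC1 fRIP, which overlapped input set 1 at 21.7% to 23.4%. For the 13 mitochondrially encoded mRNAs all were lower in CHD4 fRIP (-2.29).

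Against DNMT1 fRIP, 912 genes were higher (3.58%) and 3090 lower (12.1%), and after centring 1691 were higher and 1648 lower (50.6% higher in place of 22.8%). Of 34 replication-dependent histone mRNAs, 29 were lower in CHD4 fRIP and none higher, with a median of -3.09 (54 lower of all 76 histone genes, -2.62). HIST1H1E, at 84.3, 46.2 and 87.4 FPKM with CHD4, reached 674, 957 and 1104 FPKM with DNMT1. Mitochondrially encoded mRNAs went the other way, higher for 13 of 13 (1.76), since MT-CO3 was at 118, 122 and 82.4 FPKM in DNMT1 fRIP. Cytosolic ribosomal protein mRNAs were higher for 59 of 79 (1.54), and respiratory chain genes were lower for 13 and higher for 4 of 81 (-0.24, turning to 0.08 after centring). Retained intron isoforms took 18.9% to 22.1% in DNMT1 fRIP.

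Against PABP fRIP, 126 genes were higher (0.495%) and 453 lower (1.78%), with 284 lower when PABP replicate 3 was left out, and 317 were higher and 229 lower after centring (58.1% higher in place of 21.8%). This difference of 2 contrasts has a larger error than the direct differences from HDAC1 and DNMT1, and without the input terms 354 genes were higher and 1136 lower, so the counts are not ranked against those. Cytosolic ribosomal protein mRNAs were lower in CHD4 fRIP for 51 of 79 (median -1.29), as were 20 of 81 respiratory chain genes (-0.63). RPS18 reached 6658, 5383 and 8585 FPKM with PABP. Of 34 histone mRNAs, 9 were higher and 2 lower (0.78), and of 20 snoRNA host lncRNAs none was higher and 1 lower (-0.14, turning to 0.07 after centring), with GAS5 at 2439, 2308 and 3531 FPKM in PABP fRIP. RAB13 stood at 34.2, 34.4 and 47.2 FPKM in PABP fRIP and its difference from CHD4 fRIP was 1.46 (adjusted p = 3.1e-07, limma). For the NuRD subunits no member was called in either direction, with a median of -0.02 that turned to 0.18 after centring.

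**Figure D5:**
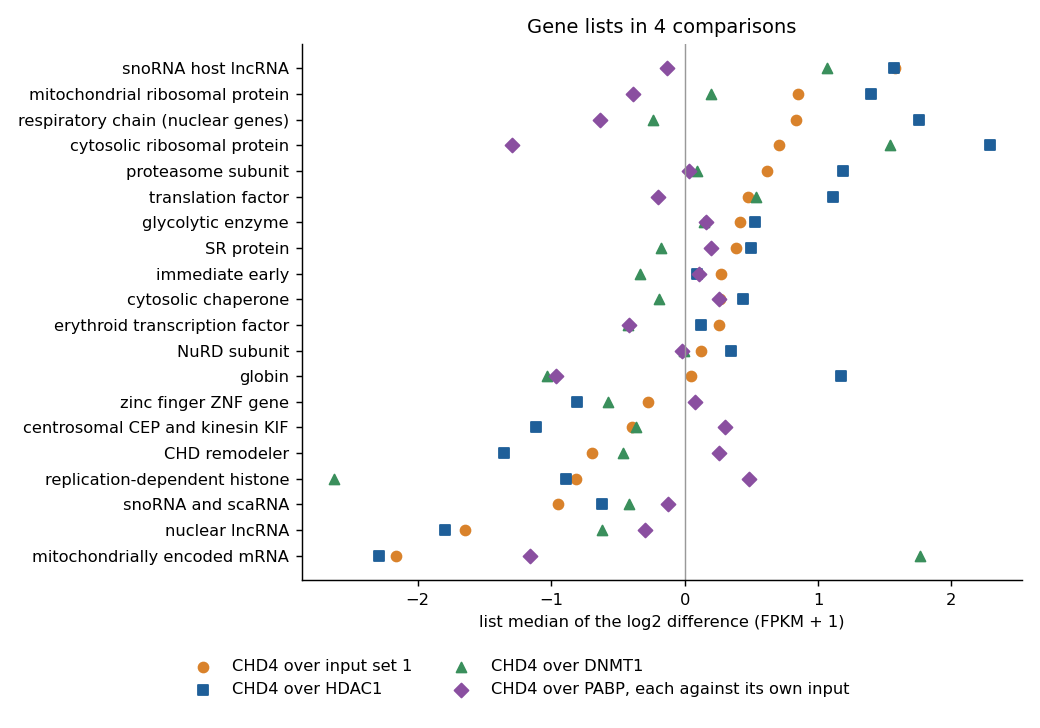
Medians of the log2 difference for 20 gene lists (y axis) in 4 comparisons: CHD4 fRIP over input set 1, over HDAC1 fRIP, over DNMT1 fRIP and over PABP fRIP with each against its own input (x axis, scale log2(FPKM + 1)). Cytosolic ribosomal protein mRNAs range from -1.29 against PABP to 2.29 against HDAC1, and histone genes, pseudogenes included, from -2.62 against DNMT1 to 0.49 against PABP. When libraries are centred, the sign turns for zinc finger genes and for CEP and KIF genes over input, for sno and scaRNAs against HDAC1, for the respiratory chain, chaperones, NuRD subunits and SR proteins against DNMT1, and for translation factors, NuRD subunits, snoRNA hosts and sno and scaRNAs against PABP. Centring also moves the median of all genes, to 0.42 over input, 0.45 against HDAC1, 0.16 against DNMT1 and 0.09 against PABP.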

How the data were processed

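The deposited values are FPKM per gene and per isoform for each library, estimated by the authors with Cuffdiff after alignment with TopHat to hg19 and GENCODE v18; the submitters' processing notes also name CASAVA 1.4 and Cuffnorm. Libraries were made with the TruSeq RNA kit, which does not mark strand; how reads were filtered is not given in the sources used here. A table of the authors' own comparisons holds fold changes and p-values, which were not used; only its input values served to find the nearest input set. Genes with at least 1 FPKM in 2 of the 79 libraries entered 1 limma fit (version 3.58.1, R 4.3.3) with an intensity trend on log2(FPKM + 1), with 27 groups (24 proteins and 3 input sets) and no replicate block, and Benjamini-Hochberg adjustment within each comparison. Isoforms were fitted the same way, and 5070 genes by the log2 ratio of summed retained intron to coding isoforms. Python 3.11.15 was used elsewhere. Of 48453 genes, 46055 had their Ensembl identifier in GENCODE v44 (hg19 liftover), which supplied classes, coordinates and sequences. Depth was estimated from the step of 1 fragment in low isoform values, of which 97.7% to 99.2% lay within 0.15 of a whole multiple; FPKM values do not state it, so no counting interval is given.

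The 22 gene lists, the members and the tests were chosen with earlier results of these data known. Named are CHD4, the NuRD subunits, in each list the 4 members with the highest FPKM and the largest called change in each direction, and the 10 mRNA and 5 lncRNA genes with the largest changes each way among called genes whose higher group averages 10 FPKM or more and whose CHD4 libraries overlap none of the 9 inputs, not all of which are printed. 1 lncRNA gene that met this rule, some marker genes and a transcript end are not reported here. Histone and lncRNA names added after seeing values are marked. On simulated data for CHD4 against input set 1 with 25442 genes, 95% of 100 genes changed by 1.5 and 99% of 100 changed by 3 on the log2 scale were called, with 1 false call. Alternatives covered other inputs, pseudocounts, filters, centring, a replicate block and each library left out. Whether replicates are independent cultures is known from the study's description only, so p-values measure the spread between these libraries.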

Additional observations from a re-analysis of the deposited data

Results flagged for a closer look

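In a check of 15 NuRD subunit genes over the 9 input libraries, MBD3 stood apart in 1 library. It was at 79.4 FPKM in input set 2 replicate 3, while the other 8 inputs ranged from 49.1 to 60.3 FPKM, a gap of 0.632 of the whole range. This check picks out about 1 in 20 groups by chance, and the CHD4 libraries, at 64.2, 72.5 and 77.4 FPKM, overlap the 9 inputs through this 1 library. Without it they would lie above the other 8.

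Effects that differed between CHD4 fRIP and another fRIP by the test of the difference itself were counted for 3 proteins. Against PABP fRIP, 126 genes were higher and 453 lower in CHD4 fRIP, among them 51 cytosolic ribosomal protein mRNAs that were lower. Against HDAC1 fRIP, 2934 genes were higher and 5445 lower, with 78 of the same list higher. Against DNMT1 fRIP, 912 genes were higher and 3090 lower, with all 13 mitochondrially encoded mRNAs higher and 54 of 76 histone genes, pseudogenes included, lower.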

How the results depend on the processing

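Counts by gene moved with the input set and the scale. Higher genes numbered 740 against all 9 inputs, 725 against set 2 and 548 against set 3 (both sets added after seeing the data), and lower genes 2090 against set 2 and 1865 against set 3. Centring each library on its median gave 4853 higher and 1491 lower genes and 15055 higher and 6911 lower isoforms. A pseudocount of 0.1 FPKM gave 6208 lower genes and 23994 lower isoforms, and a mean of 5 FPKM or more left 1043 lower genes, as fewer genes were tested. Centring gave 6265 higher and 2281 lower genes against HDAC1, 1691 and 1648 against DNMT1, and 317 and 229 against PABP. The PABP comparison gave 354 higher and 1136 lower genes with no input term and 219 higher genes with a pseudocount of 0.1 FPKM. The cause of these shifts was not tested beyond what each alternative changes by construction. Leaving out 1 library gave 1158 to 1553 higher and 3478 to 3769 lower genes, 96 to 152 higher and 284 to 483 lower genes against PABP, the 284 without PABP replicate 3, and 3180 to 3290 genes with a lower retained intron ratio. Correlations with transcript length, coding length and exon number were -0.343, -0.370 and -0.223 against the mean of 9 inputs and -0.522, -0.561 and -0.427 at 10 FPKM or more, where 3′ UTR length gave -0.236. HIST1H2AC turned to -0.019 against set 2 and -0.64 against set 3, and HIST3H2A to -0.17 against set 3. The medians of globin genes turned to -0.43 against 9 inputs, and those of zinc finger and of CEP and KIF genes to 0.32 and 0.20 after centring, where the median of all genes was 0.42. Libraries with the same replicate number did not deviate together (r of -0.085, -0.082 and 0.037), so the numbers were not taken to pair them, and a replicate block gave 1215 higher and 3572 lower genes, 3878 and 13069 isoforms, and 112 and 3349 retained intron ratios. Genes near 1 FPKM rest on few fragments.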
